A study of Mus musculus with 167 samples.

Results

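The miR-15/16 family, with miR-195a and miR-497a, was followed through 5 mouse tissues after irradiation of the thorax. Its 5 members here are the mature miRNAs mmu-miR-15a-5p, mmu-miR-15b-5p, mmu-miR-16-5p, mmu-miR-195a-5p and mmu-miR-497a-5p, taken by name as 5 of the 1915 mature miRNAs listed in each of the 5 tissue count tables. All 5 were measured above 0 in all 167 libraries and all 5 passed the filter on low counts in every tissue.

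MicroRNAs are short RNAs that guide Argonaute proteins to messenger RNAs, which they bind mainly through the bases near their 5′ end called the seed, and targets bound this way are translated less and degraded faster. Members of this family share a seed and are known for holding back the cell cycle and survival genes, with Ccnd1, Ccne1 and Bcl2 among the textbook targets. The miR-15a/16-1 gene pair is known from the human counterpart lost in chronic lymphocytic leukaemia, miR-195a and miR-497a are known from the exit of heart muscle cells from the cell cycle after birth, and miR-16-5p is among the most abundant miRNAs of red blood cells.

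The mice were gnotobiotic adults of 2 strains, C3Hf/Sed/Kam (C3H) and C57Bl/6 (C57). Irradiated mice had received a single X-ray exposure of the thorax (whole thorax lung irradiation, WTLI) with the rest of the body shielded by lead, at a dose set separately for each strain, and sham mice were handled as controls. Heart, lung, brain, leukocytes (WBC) and erythrocytes (RBC) were taken from survivors at month 4 after WTLI in C3H and at month 6 in C57, so strain and time after exposure cannot be told apart. All C3H mice were female, 7 irradiated and 8 sham, and the C57 mice were 5 irradiated (4 males and 1 female) and 15 sham (8 males and 7 females). WBC libraries were fewer, with 6 irradiated and 5 sham from C3H and 5 irradiated and 11 sham from C57. The libraries of a group came from different animals, and 1 animal could give a library of each tissue. Organs were taken and frozen after the mice had been infused with PBS, and plasma was separated from both blood fractions by centrifugation. How WBC and RBC were parted from each other, and how pure either is, is not given in the sources used here. Each sample title carries a letter A or B whose meaning the labels do not give, and both letters occur in all 4 combinations of strain and exposure.

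The mature sequences are shown first because the shared seed lies in them and because 2 members are hard to tell apart. The seed, bases 2 to 8 from the 5′ end, is in capitals, and the coordinates are those of RefSeq on mouse build GRCm38.p6.
miR-15a-5p: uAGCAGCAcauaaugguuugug
miR-15b-5p: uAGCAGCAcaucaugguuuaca
miR-16-5p: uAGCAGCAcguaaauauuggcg
miR-195a-5p: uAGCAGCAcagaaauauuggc
miR-497a-5p: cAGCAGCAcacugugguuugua
miR-322-5p: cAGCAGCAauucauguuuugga
The last line is not a member but carries the same seed, as do 10 of the 1679 mature mouse names in the reference table. The other 4 same-seed names, miR-195b, miR-6342, miR-6353 and miR-6419, had 0 counts in all 167 libraries, which allows up to 3 counts in each.

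Outside the seed some pairs of members are more alike than others. miR-16-5p and miR-195a-5p are identical at 19 of the 21 positions they share and differ by G10A and U11G, counted from 1 at the 5′ end with the miR-16-5p base first. miR-15a-5p and miR-15b-5p differ at 4 positions (A12C, G20A, U21C and G22A) and miR-15a-5p and miR-497a-5p at 5, whereas miR-195a-5p and its genomic neighbour miR-497a-5p differ at 9 of 21. Differences at 6 positions separate miR-15a-5p from miR-16-5p and from miR-195a-5p, and miR-15b-5p from miR-497a-5p. So the pairs most alike in sequence are not the pairs that lie side by side in the genome.

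The genes lie in 3 clusters. On chromosome 14, in the long noncoding gene Dleu2, Mir15a (chr14:61632027-61632110, minus strand, intron) lies 54 bases from Mir16-1 (chr14:61631880-61631972, minus strand, overlapping an exon in the annotation). On chromosome 3, in introns of Smc4, which encodes a condensin subunit, Mir15b (chr3:69009772-69009835, plus strand) lies 66 bases from Mir16-2 (chr3:69009902-69009996, plus strand). On chromosome 11, outside any annotated host gene on their strand, Mir497 (chr11:70234717-70234800, plus strand) and Mir195a (chr11:70235042-70235135, plus strand) are 241 bases apart. Mir322 lies on chromosome X (chrX:53054255-53054349, minus strand). The mature miR-16-5p is the same from both its loci, so its reads cannot be assigned to chromosome 3 or 14.

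Each library held between 1794995 and 7865102 miRNA counts, with a median of 3475620. Levels are given as RPM (reads per 1000000), a miRNA's count divided by all miRNA counts of its library and multiplied by 1000000. They are shares of a library, and because adaptor ligation favours some sequences over others, an RPM compares 1 miRNA between samples better than it compares different miRNAs. Summed marker miRNAs of heart muscle, brain and lung epithelium were each highest in their own organ in 35 of 35 libraries. The blood fractions were not separated by their markers: the 4 erythroid miRNAs summed to between 17913 and 106907 RPM in WBC and between 28566 and 106323 in RBC, and the 5 leukocyte miRNAs to between 10623 and 33447 in WBC and between 8203 and 45244 in RBC. The lowest heart muscle sum, 50690 RPM against a heart median of 246805, was in C3H irradiated heart library 3, which was also the heart library least like the others.

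The first question was where each member is found in sham mice. Over sham and irradiated libraries together, miR-16-5p made up most of the family, at least 97.6% of the members' counts in every library. It was the most abundant of all miRNAs in 27 of 27 WBC and 35 of 35 RBC libraries, ranked 2 to 6 in lung, 2 to 7 in heart and 5 to 14 in brain. In sham mice the 5 members together took between 32.6% and 56.0% of an RBC library and between 31.1% and 56.0% of a WBC library. In sham organs they took between 3.50% and 8.96% in lung, between 2.88% and 5.80% in heart and between 2.52% and 4.75% in brain.

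**Figure D1:**
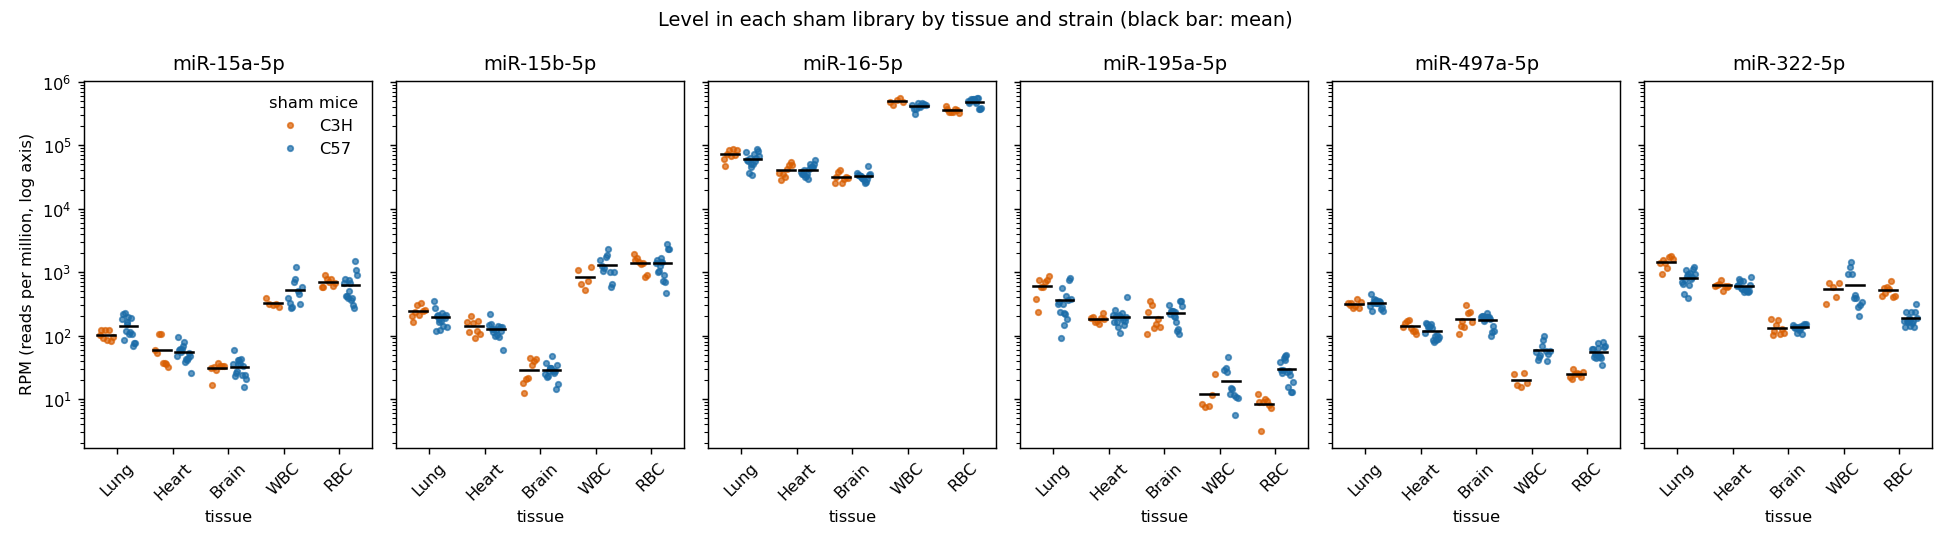
Level of the 5 members and of miR-322-5p in every sham library, in RPM on a log axis, by tissue and strain, with 1 point per library. The blood points of miR-15a-5p, miR-15b-5p and miR-16-5p lie above all organ points, and those of miR-195a-5p lie below all organ points.

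miR-16-5p was highest in blood. In C3H sham WBC its level was 481002, 432647, 508751, 558688 and 487007 RPM in the 5 libraries, and in C3H sham RBC it ran from 324564 through a median of 345926 to 408900. The C57 sham levels were 309804, 428010 and 461541 in WBC and 367659, 502131 and 559051 in RBC (lowest, median and highest, in this order from here on). Lung was next, with 47472, 70629 and 88096 in C3H and 34221, 57504 and 86272 in C57. Blood and lung did not overlap in either strain, and the lower of the blood means was 4.95-fold the lung mean in C3H and 6.86-fold in C57. Heart, with group means of 40535 ± 9418 (SD, n = 8) and 40741 ± 8126 (SD, n = 15) in C3H and C57, overlapped both lung and brain, where the means were 31449 ± 5422 and 32253 ± 5142 for the same n. The order of the blood fractions differed between the strains, which also differ in sex and month. WBC was 1.39-fold RBC in C3H with no overlap, and RBC was 1.18-fold WBC in C57 with overlapping ranges. In C57 sham females alone the means were 440539 RPM in WBC (n = 4) and 458186 in RBC (n = 7).

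miR-15a-5p and miR-15b-5p, the neighbours of the 2 miR-16 genes, were also highest in blood, at far lower RPM. miR-15a-5p had sham means of 699 ± 108 RPM (SD, n = 8) in C3H RBC and 629 ± 337 (SD, n = 15) in C57 RBC. Its WBC values were 388, 320, 306, 317 and 286 in C3H, and 273, 459 and 1194 in C57. Its lung values, 83.4, 97.4 and 125 in C3H and 69.4, 120 and 228 in C57, lay below all WBC values of the same strain. Heart means were 58.5 ± 31.2 and 54.8 ± 17.6 and brain means 30.5 ± 6.14 and 32.2 ± 11.1, and neighbouring organs overlapped. miR-15b-5p went from 1381 ± 363 in C3H RBC and 1394 ± 645 in C57 RBC to 245 ± 54.6 and 194 ± 61.0 in lung and 140 ± 38.1 and 127 ± 35.5 in heart. It was the one member with a clear step between heart and brain, where its level was 29.2 ± 12.4 and 28.2 ± 7.95: the heart mean was 4.79-fold the brain mean in C3H and 4.49-fold in C57, without overlap.

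miR-195a-5p showed the opposite distribution. In C3H sham mice it had 239, 636 and 869 RPM in lung, 155, 185 and 228 in heart and 104, 167 and 353 in brain, against 3.14, 8.99 and 11.9 in RBC. The 5 C3H WBC libraries had 8.43, 7.39, 7.63, 11.7 and 24.9 RPM. In C57 it had 90.4, 317 and 821 in lung, 109, 193 and 398 in heart, 107, 232 and 350 in brain, 5.57, 14.6 and 45.9 in WBC and 12.9, 27.4 and 50.2 in RBC. The organs overlapped one another, except that all C3H lung values lay above all C3H heart values. All organs stood apart from blood, the nearest pair being heart and WBC in C3H (15.4-fold) and heart and RBC in C57 (6.68-fold).

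miR-497a-5p followed miR-195a-5p, with a smaller gap. In C3H it had 274, 314 and 372 RPM in lung, 107, 133 and 178 in heart, 105, 167 and 302 in brain and 20.8, 24.7 and 30.2 in RBC, and the 5 WBC values were 24.7, 16.6, 15.7, 25.5 and 17.7. In C57 the lung values of 241, 323 and 447.5 lay above all brain values (98.1, 197 and 228). C57 blood was closer to the organs than C3H blood, with 39.8, 56.0 and 97.7 in WBC and 34.7, 51.0 and 79.3 in RBC. Heart lay 5.65-fold above the nearest blood fraction without overlap in C3H and 1.99-fold above it with overlap in C57 (79.3, 111 and 157 in heart).

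miR-322-5p, which shares the seed but is not one of the 5 members, was neither blood-rich nor organ-rich. It was highest in lung, with a sham mean of 1446 ± 290 RPM (SD, n = 8) in C3H and 821 ± 231 (SD, n = 15) in C57, and lowest in brain, with 134 ± 32.8 and 135 ± 14.5. Heart (621 ± 72.5 and 604 ± 113) and WBC (533 ± 162 with n = 5, and 618 ± 419 with n = 11) lay between, as did RBC, with 516 ± 108 in C3H and 189 ± 49.5 in C57.

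On a log2 scale (RPM + 0.5), the mean of the sham blood groups minus that of the sham organ groups was 3.32 for miR-16-5p, 3.63 for miR-15b-5p and 3.11 for miR-15a-5p, and −4.10 for miR-195a-5p and −2.42 for miR-497a-5p. The pooled SD between libraries of a group was between 0.26 and 0.63, so each gap was several times that spread. For miR-322-5p the gap was −0.16 with a pooled SD of 0.43. TMM factors (a scaling that centres the bulk of miRNAs) computed over all libraries moved every gap up by close to 1 unit, to 4.31, 4.61, 4.09, −3.13 and −1.44 in the same order, and turned the gap of miR-322-5p to 0.83. Within sham animals, miR-15a-5p, miR-15b-5p and miR-16-5p were each higher in WBC than in lung, heart and brain in 16 of 16 animals and higher in RBC in 23 of 23, while miR-195a-5p and miR-497a-5p were higher in blood in 0 of these animals. The median within-animal difference between RBC and lung was 2.75 for miR-16-5p, −4.31 for miR-195a-5p and −2.85 for miR-497a-5p. These tissue levels are a description with no test. In whole organs and mixed fractions, fewer cells of a type and less RNA per cell cannot be told apart.

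Because miR-195a-5p differs from miR-16-5p by 2 bases, its blood counts were also set against those of miR-16-5p. In C3H, sham and irradiated together, each 1000000 miR-16-5p reads came with a median of 17.1 miR-195a-5p reads in WBC (range 9.70 to 51.1) and 24.9 in RBC (9.41 to 37.6). In C57 it was 35.6 in WBC (12.8 to 124) and 55.1 in RBC (33.7 to 94.8). In the organs the medians lay between 4233 and 7127. The C3H RBC values rest on 8 to 51 reads per library. The opposite arm of its hairpin, miR-195a-3p, had 0 counts in all 8 sham and 7 irradiated C3H RBC libraries and all 5 sham and 6 irradiated C3H WBC libraries, and sham organ means between 7.92 and 16.1 RPM. How reads one or more bases away from a reference were assigned is not given in the sources used here, and its part in these low values was not tested.

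The miRNAs whose sham pattern was most like each member's were found over the 10 sham group means (5 tissues in 2 strains, log2(RPM + 1)) among 392 miRNAs reaching 10 RPM in at least 1 group. The correlations below describe 10 points that share libraries and library totals. For miR-16-5p they were miR-92a-3p (r = 0.996), miR-25-3p (0.986) and miR-18a-5p (0.984). For miR-15a-5p they were miR-20a-5p (0.998), miR-142a-5p (0.988) and miR-19a-3p (0.988), and for miR-15b-5p miR-142a-5p (0.990), miR-1954 (0.985) and miR-20a-5p (0.981). miR-142a-5p is a leukocyte miRNA, and miR-18a, miR-19a, miR-20a and miR-92a come from the miR-17-92 cluster. For miR-195a-5p the nearest were miR-126a-3p, an endothelial miRNA (0.964), miR-23b-3p (0.963) and miR-455-5p (0.963), with miR-497a-5p at rank 4 (0.962). For miR-497a-5p they were miR-195a-5p itself (0.962), miR-29a-5p (0.952) and miR-200a-3p (0.946). The look-alikes miR-16-5p and miR-195a-5p had r = −0.888, which put miR-195a-5p at rank 334 of the likeness to miR-16-5p.

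Within an organ the members related to one another differently from this. Over the 23 sham mice, 18 relations of members' log2 RPM were examined in lung, heart and brain, by permutation tests with 100000 resamples and Benjamini-Hochberg adjustment over the 18. Values were shuffled freely over all 23 mice, so differences between strains, sexes and letters also enter these p-values. Blood was left out. There the sham ranges of the strains stood apart for miR-497a-5p in both fractions and for miR-195a-5p in RBC, and otherwise overlapped. miR-16-5p and miR-195a-5p, opposite between tissues, moved together between mice within lung (Pearson r = 0.87, Spearman rho = 0.84) and within brain (r = 0.86, rho = 0.92). For all 4 of these values the permutation p was 1e-05, the smallest that 100000 resamples can give, and the adjusted p was 9e-05. Without the 2 mice farthest from the median of miR-16-5p, r was 0.81 in lung and 0.89 in brain. Within title letter A (n = 12) r was 0.86 in lung and 0.93 in brain, and within letter B (n = 11) 0.94 and 0.78. In heart the relation was weaker and uneven: r = 0.52 (permutation p = 0.0093, adjusted p = 0.017) and rho = 0.44 (permutation p = 0.035, adjusted p = 0.058), where r was 0.01 for letter A and 0.75 for letter B. Over the 12 irradiated mice, given as values alone, r was 0.73 in lung, 0.71 in heart and 0.92 in brain.

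For the clustered pair miR-195a-5p and miR-497a-5p no relation passed the test. Its r was −0.17 in lung, −0.22 in heart and −0.10 in brain, with permutation p-values of 0.441, 0.332 and 0.641 (adjusted 0.496, 0.399 and 0.678), and rho was −0.16, −0.18 and −0.17 (adjusted permutation p = 0.50 each). In brain the sign differed between the letters, with r = 0.41 in A and −0.78 in B, and r was −0.62 without the 2 mice farthest from the median and 0.46 once each combination of strain, sex and letter was centred on its own mean. Over the 12 irradiated mice r was −0.49 in lung, −0.44 in heart and −0.81 in brain. miR-15a-5p, which is 5 bases away from miR-497a-5p and lies on another chromosome, was related to it in lung (r = 0.65, permutation p = 8.2e-04, adjusted p = 0.0021) and in heart (r = 0.72, permutation p = 1e-04, adjusted p = 4.5e-04). The rho values were 0.60 and 0.74 (adjusted permutation p = 0.0066 and 5.9e-04), r without the 2 farthest mice was 0.61 and 0.62, and r lay between 0.54 and 0.84 inside each letter. By strain, r in lung was 0.22 within C3H and 0.72 within C57, and in heart 0.92 and 0.76. In brain r was 0.52 (permutation p = 0.011, adjusted p = 0.017) and rho 0.60 (adjusted permutation p = 0.0067), but r was 0.24 and 0.85 inside the letters and 0.42 without the 2 farthest mice. With each combination centred on its own mean, r was 0.56 in lung, 0.48 in heart and 0.18 in brain, and over the irradiated mice it was 0.89, 0.28 and 0.86 in the same order.

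miR-15a-5p and miR-15b-5p were related in brain (r = 0.70, permutation p = 2.5e-04, adjusted p = 9e-04) and heart (r = 0.65, permutation p = 7e-04, adjusted p = 0.0021). Their rho was 0.66 and 0.49 (adjusted permutation p = 0.0031 and 0.031), r without the 2 farthest mice was 0.50 and 0.58, and r inside letters A and B was 0.72 and 0.78 in brain but 0.79 and 0.38 in heart. In lung their r was 0.05 (permutation p = 0.83, adjusted p = 0.83). miR-16-5p was positively related to miR-15b-5p, whose gene lies beside Mir16-2, in lung (r = 0.62, permutation p = 0.0015, adjusted p = 0.0034, and rho = 0.68), with r = 0.62 without the 2 farthest mice and 0.58 and 0.71 inside the letters. In heart and brain this pair had r = −0.31 (permutation p = 0.15, adjusted p = 0.20) and −0.42 (permutation p = 0.045, adjusted p = 0.064), with −0.82 in brain letter B. miR-16-5p ran against miR-15a-5p in heart (r = −0.76, permutation p = 7e-05, adjusted p = 4.2e-04, and rho = −0.80), with −0.63 and −0.86 inside the letters and −0.78 without the 2 farthest mice, though r was −0.25 once each combination of strain, sex and letter was centred on its own mean. The same pair had r = −0.60 in lung (permutation p = 0.0025, adjusted p = 0.0051, and rho = −0.50), with −0.31 and −0.82 inside the letters, −0.41 without the 2 farthest mice, −0.03 within C3H and −0.25 when centred. In brain it had r = −0.42 (permutation p = 0.046, adjusted p = 0.064). Over the irradiated mice r was −0.35 in lung, −0.58 in heart and −0.82 in brain. In all of these the RPM values share a library total, which was not removed.

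**Figure D2:**
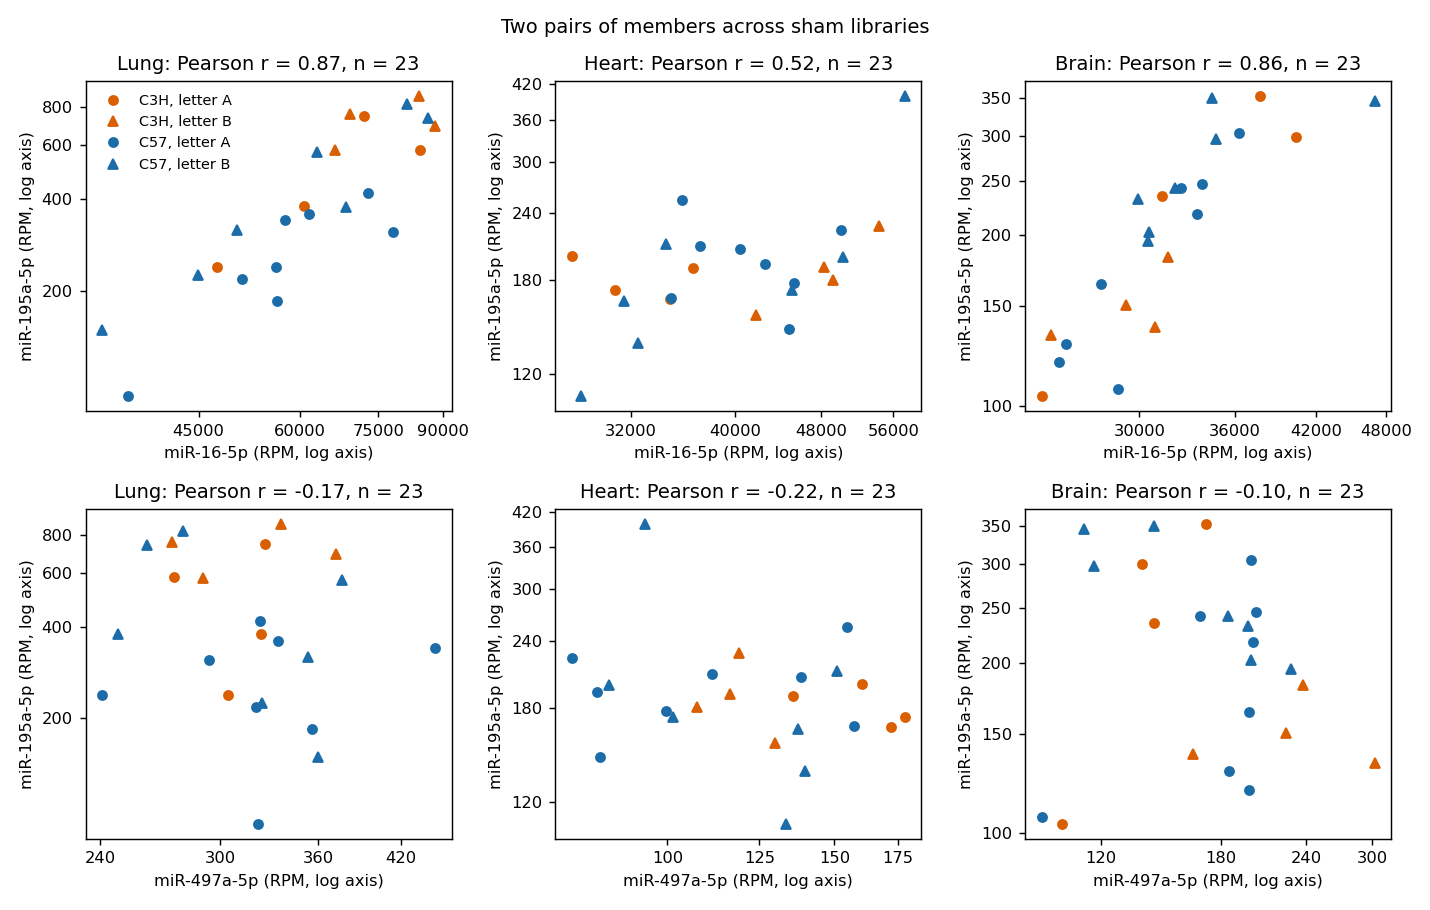
Level of miR-195a-5p (RPM, log axis) against miR-16-5p in the top panels and against miR-497a-5p in the bottom panels, for the 23 sham mice in lung, heart and brain, with 1 point per library and the strain and title letter marked. The top panels rise in lung and brain (r = 0.87 and 0.86), and the bottom panels show no common slope (r between −0.22 and −0.10).

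The next question was whether the members differed between irradiated and sham mice months after WTLI. Each tissue was fitted with edgeR's quasi-likelihood test across all its miRNAs, and a change is called at a Benjamini-Hochberg adjusted p under 0.05. Over all tissues and both strains 1 member was called, miR-497a-5p in C3H heart. There 62 of 312 miRNAs were called (19.9%), so 1 of 5 members is close to the share of all miRNAs. Fold changes here are relative to the bulk of miRNAs, through TMM factors. Scaled by library totals alone, the median of all miRNAs moved to 0.30 in C3H lung, −0.17 in C3H heart, −0.33 in C3H WBC, −0.19 in C3H RBC and 0.10 in C57 lung, from between −0.05 and 0.07.

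**Figure D3:**
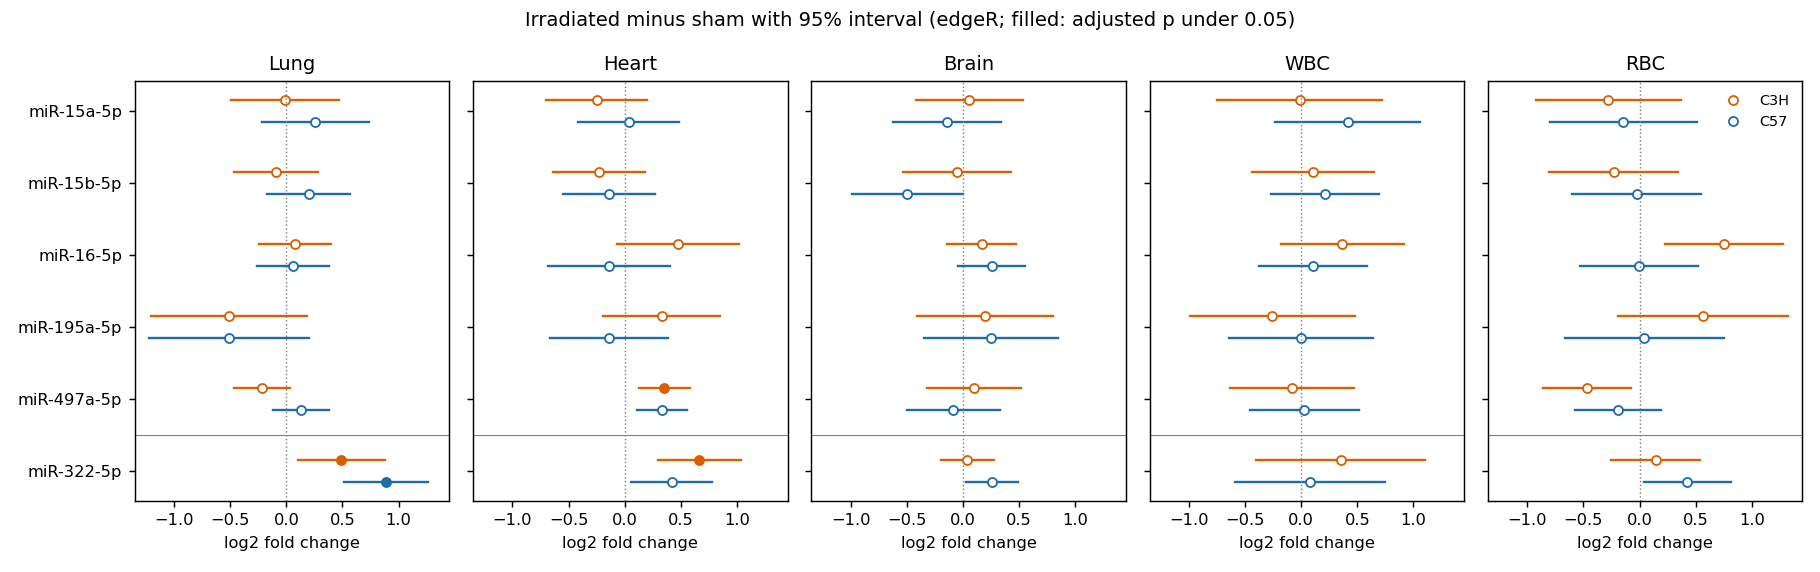
Irradiated minus sham log2 fold change of the 5 members and miR-322-5p by tissue and strain, with 95% confidence intervals from edgeR. Filled points are called, which holds for miR-497a-5p in C3H heart and for miR-322-5p in C3H lung, C57 lung and C3H heart.

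In lung, the irradiated organ, none of the members was called, beside 122 of 350 miRNAs in C3H (34.9%) and 72 of 350 in C57 (20.6%). On only 5 members, 0 calls does not set the family apart from these shares. With DESeq2 the members called were also 0 in either strain, of 129 and 84 called in all, and 0 members had an unadjusted edgeR p under 0.05. miR-16-5p had 77260, 83547 and 113718 RPM in irradiated C3H lung against the sham 47472, 70629 and 88096. All 7 lay above the sham median, but the log2 fold change was 0.08 ± 0.16 (SE, 95% interval −0.24 to 0.40, edgeR adjusted p = 0.73) and 0.36 by library totals alone. In C57 the 5 irradiated libraries had 64360, 77806, 51347, 56041 and 87399 RPM, within or just above the sham range, and the log2 fold change was 0.06 ± 0.16 (edgeR adjusted p = 0.82).

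miR-195a-5p was the member with the widest interval in lung. It had 309, 461 and 805 RPM in irradiated C3H lung against 239, 636 and 869 in sham, and 155, 419, 179, 197 and 406 in irradiated C57 lung against 90.4, 317 and 821 in sham. Both groups overlapped in full. The log2 fold change was −0.51 ± 0.34 in C3H (95% interval −1.20 to 0.19) and −0.51 ± 0.35 in C57 (−1.22 to 0.20), with edgeR adjusted p-values of 0.26 and 0.31. In C3H it was 0.21 within letter A and −1.13 within letter B, where it was called (edgeR adjusted p = 0.043). miR-497a-5p was −0.22 ± 0.12 in C3H lung (edgeR adjusted p = 0.18) and 0.13 ± 0.12 in C57 lung (edgeR adjusted p = 0.43), and miR-15a-5p and miR-15b-5p were between −0.09 and 0.26. Library totals alone turned the sign of miR-15a-5p, miR-15b-5p and miR-497a-5p in C3H lung, and quantile normalisation turned that of miR-16-5p in lung of both strains.

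The same-seed miR-322-5p rose in irradiated lung of both strains. In C3H it had 1586, 2353 and 3381 RPM against 918, 1484 and 1766.5 in sham, and 6 of the 7 irradiated libraries lay above all sham libraries. The log2 fold change was 0.49 ± 0.19 (1.41-fold, edgeR adjusted p = 0.045), close to the threshold and called in 14 of 27 alternatives. The call was lost, at values between 0.43 and 0.49, without sham library 1, 2, 3, 4 or 5 or irradiated library 1, 4, 5 or 7. In C57 the 5 irradiated libraries had 1452, 2208, 1395, 1082 and 2120 RPM against 398, 827 and 1189, and 4 of 5 lay above all sham. The log2 fold change was 0.89 ± 0.18 (1.85-fold, edgeR adjusted p = 8.2e-04), called in 16 of 18 alternatives. Within letters it was 0.51 and 0.45 in C3H, called in neither, and 1.24 (called) and 0.59 in C57. The difference between the strains was −0.40 ± 0.27 and was not called (edgeR adjusted p = 0.52). Marker sums differed in the same lungs. In C3H the 2 endothelial miRNAs summed to 331196 ± 38017 RPM in irradiated against 413846 ± 23067 in sham, and the 4 heart muscle miRNAs to 3994 ± 896 against 5714 ± 893. In C57 the 5 leukocyte miRNAs summed to 6312 ± 509 against 4307 ± 2102 and the endothelial miRNAs to 331617 ± 27470 against 372073 ± 62647, both with overlapping ranges. The 4 erythroid miRNAs summed to 1274 ± 939 against 559 ± 336 in C3H and to 240 ± 161 against 499.6 ± 508 in C57, also with overlapping ranges. The 4 lung epithelium miRNAs summed to 6144 ± 1372 against 5513 ± 622 in C3H and 9689 ± 1799 against 10144 ± 1702 in C57. The part of all these marker sums in the lung values of miR-322-5p, of the members and of their other arms was not tested.

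The other arms of the hairpins were counted at low levels in lung. miR-15b-3p rose in C3H lung from a mean of 11.8 ± 2.69 RPM (SD, n = 8) to 20.8 ± 8.61 (SD, n = 7), with 4 of 7 irradiated libraries above all sham (log2 fold change 0.49 ± 0.18, edgeR adjusted p = 0.035). In C57 it had 21.6 ± 1.93 against 15.9 ± 3.66, with a log2 fold change of 0.33 (edgeR adjusted p = 0.18). miR-497a-3p fell in C3H lung from 3.39 ± 2.02 to 1.99 ± 0.45 RPM, which is 5 to 25 reads in a sham and 5 to 9 in an irradiated library (log2 fold change −1.09 ± 0.37, edgeR adjusted p = 0.020), and all 7 irradiated values lay below the sham median. The call of miR-15b-3p was lost without C3H sham library 1, 5, 6 or 7 or irradiated library 3, 4, 5 or 6 (0.36 to 0.47), under voom with quantile normalisation (0.30), with no filter on low counts (edgeR adjusted p = 0.11), under the fold minimum and in letter A (0.19, against 0.80 in letter B). That of miR-497a-3p was lost without sham library 1 or 2 (−0.89 and −0.83), by library totals alone (−0.78), with no filter (edgeR adjusted p = 0.051), under the fold minimum and within either letter (−1.26 in A and −0.65 in B). miR-497a-3p was −0.50 in C57 lung (edgeR adjusted p = 0.30). miR-195a-3p was −0.47 ± 0.23 and −0.54 ± 0.23 (edgeR adjusted p = 0.10 and 0.092). The values of the guide arms miR-15b-5p and miR-497a-5p from the same hairpins, given above, were not called.

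**Figure D4:**
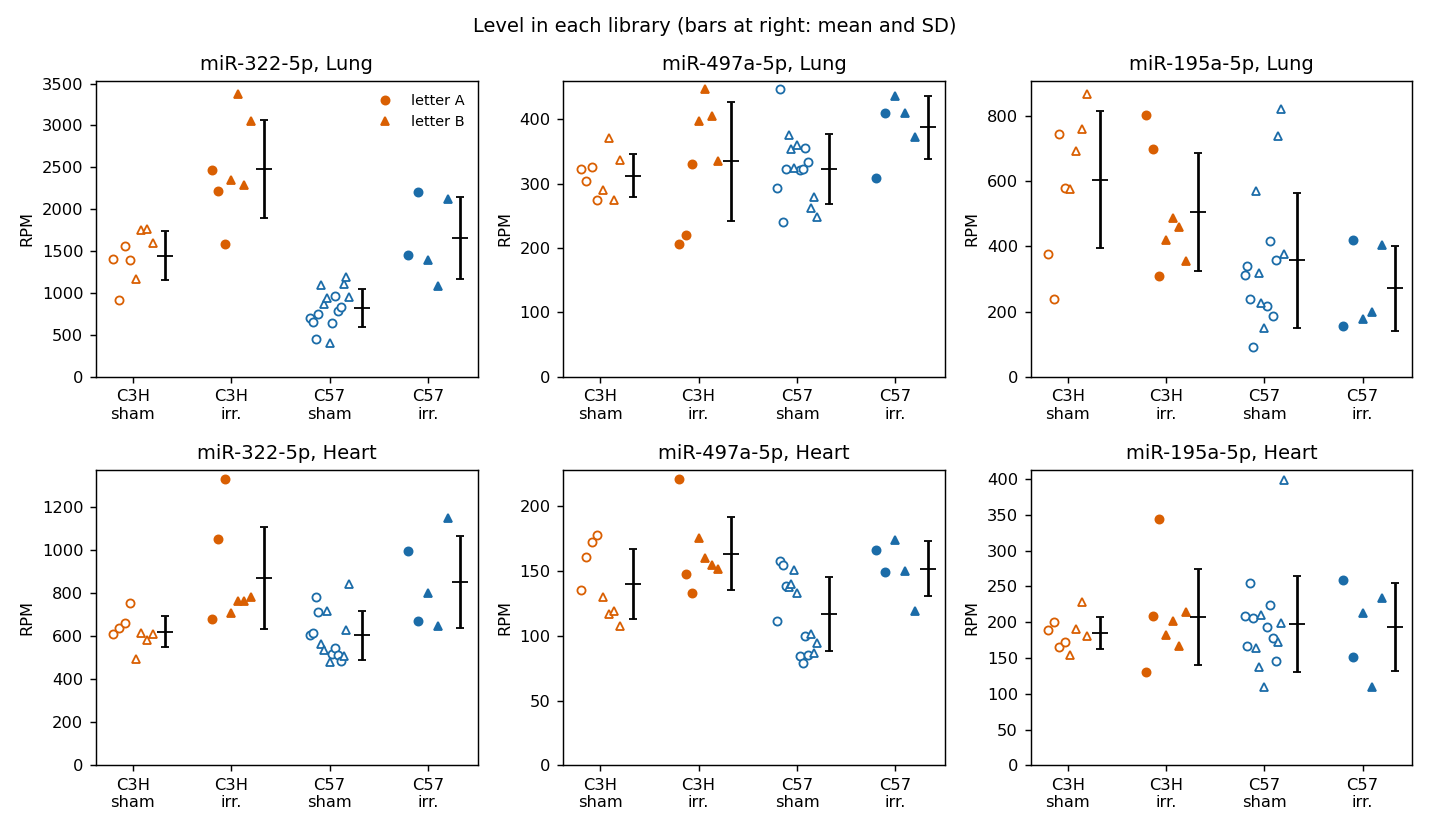
Level of miR-322-5p, miR-497a-5p and miR-195a-5p in every lung and heart library, in RPM, by strain and exposure, with the title letter as the marker shape and the mean ± SD of each group. In lung 6 of 7 C3H and 4 of 5 C57 irradiated points of miR-322-5p lie above all sham points, whereas those of miR-195a-5p overlap in full.

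In heart, which lies in the exposed field, miR-497a-5p rose in C3H. It had 133, 155 and 221 RPM in irradiated hearts against 107, 133 and 178 in sham, with 6 of 7 above the sham median and 1 above all sham. The log2 fold change was 0.35 ± 0.11 (1.28-fold, 95% interval 0.13 to 0.58, edgeR adjusted p = 0.023), and 62 of the 312 miRNAs tested in C3H heart were called (19.9%). It was called in 18 of 27 alternatives. It was not called without C3H irradiated heart library 3, the library with the low heart muscle sum (0.31, edgeR adjusted p = 0.062), under voom with quantile normalisation (0.19, adjusted p = 0.29) or by library totals alone (0.22, edgeR adjusted p = 0.31). It was called in neither letter, at 0.44 inside A and 0.25 inside B (edgeR adjusted p = 0.12 and 0.55). In C57 the irradiated hearts had 166, 149, 174, 150 and 119 RPM against 79.3, 111 and 157 in sham, 5 of 5 above the sham median and 2 above all. The log2 fold change there was 0.33 ± 0.11 (95% interval 0.11 to 0.56) and was not called (edgeR adjusted p = 0.082, unadjusted p = 0.0047, and 0.42 with adjusted p = 0.023 without irradiated library 5), and 0 members were called by edgeR beside 14 of 312 miRNAs (4.49%). DESeq2 called 18 in C57 heart. The strain difference of miR-497a-5p was 0.02 ± 0.16 (edgeR adjusted p = 0.94).

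Marker sums of the same hearts were not equal between groups. The 4 lung epithelium miRNAs summed to between 165 and 640 RPM in irradiated C3H heart, with a mean of 420 ± 154 (SD, n = 7), against between 58.1 and 212, with a mean of 98.4 ± 49.4 (SD, n = 8), in sham. In C57 heart they summed to 120 ± 32.1 (SD, n = 5) against 60.3 ± 28.3 (SD, n = 15), and in sham C3H lung to 5513 ± 622 (SD, n = 8). The 4 heart muscle miRNAs summed to 191910 ± 69624 in irradiated and 250868 ± 25086 in sham C3H heart, and to 230058 ± 12260 and 263497 ± 21105 in C57. In C3H heart the 2 endothelial miRNAs summed to 367259 ± 31904 in irradiated against 327572 ± 20715 in sham. The 4 erythroid miRNAs summed to 668 ± 506 against 1276 ± 816 and the 5 leukocyte miRNAs to 1478 ± 704 against 2781 ± 3107, both with overlapping ranges. miR-497a-5p and miR-322-5p were both more abundant in sham lung than in sham heart (above). The part of these marker sums in the heart values of either miRNA was not tested.

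The other members were not called in heart. miR-16-5p in irradiated C3H heart had 29985, 43054 and 89460 RPM, the group mean of 51165 ± 20164 (SD, n = 7) being wider than the sham 40535 ± 9418. Its log2 fold change was 0.48 ± 0.27 (edgeR adjusted p = 0.19), which split into 1.51 within letter A (edgeR adjusted p = 0.012) and −0.37 within letter B. miR-195a-5p, at 130, 202 and 345 RPM, had 0.33 ± 0.26 (edgeR adjusted p = 0.35). miR-15a-5p and miR-15b-5p had −0.25 ± 0.22 and −0.23 ± 0.20. In C57 heart the 4 were between −0.14 and 0.04. miR-322-5p rose in C3H heart, with 679, 766 and 1331 RPM against 496, 613 and 753 and 5 of 7 above all sham (log2 fold change 0.67 ± 0.18, 1.59-fold, edgeR adjusted p = 0.0082). Without the 2 heart libraries least like the others, C3H irradiated 3 and C3H sham 3, it was 0.33 and not called (edgeR adjusted p = 0.13), and without C3H irradiated 3 alone 0.38 (edgeR adjusted p = 0.076). It was 1.15 (called) within letter A and 0.19 within letter B. In C57 heart, with 995, 672.5, 799, 646 and 1148 RPM against 482, 563 and 841, its log2 fold change of 0.42 ± 0.18 was not called (edgeR adjusted p = 0.23).

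In the blood fractions no member was called. edgeR called 0 of 291 miRNAs in WBC of either strain (0%), with 25 in C3H and 14 in C57 at an unadjusted p under 0.05, and DESeq2 called 0. In RBC it called 12 of 229 in C3H (5.24%) and 1 of 229 in C57 (0.437%), and DESeq2 22 and 1. miR-16-5p in irradiated C3H RBC had 368214, 351532, 302017, 345966, 467724, 461873 and 508962 RPM against 324564, 345926 and 408900 in sham. The irradiated libraries spread to both sides, 3 above and 1 below all sham. The log2 fold change was 0.75 ± 0.26 (95% interval 0.23 to 1.28, edgeR p = 0.0062, adjusted p = 0.067), 0.69 and called with DESeq2, and 0.18 by library totals alone. It was −0.28 within letter A and 1.21 within letter B (edgeR adjusted p = 0.033), and 0.15 without RBC libraries C3H irradiated 6 and 7. Those 2 had the lowest leukocyte sums of the fraction, 10917 and 8203 RPM, and 54.2 and 53.5 RPM of miR-15a-5p against 583 to 897 in sham. miR-497a-5p had 5.11, 17.1 and 25.7 RPM against 20.8, 24.7 and 30.2, with 5 of 7 below all sham, and a log2 fold change of −0.47 ± 0.19 (edgeR p = 0.021, adjusted p = 0.15). Leaving out irradiated library 2 or 3 brought the call of miR-16-5p (0.83 and 0.85), and leaving out irradiated library 4 that of miR-497a-5p (−0.72). The part of the leukocyte share in these values was not tested.

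C57 RBC showed no such spread. miR-16-5p had 471740, 517650, 475581, 525099 and 385346 RPM against 367659, 502131 and 559051 in sham, a log2 fold change of −0.00 ± 0.26, and miR-497a-5p had 35.1, 38.8, 57.8, 53.6 and 46.1 against 34.7, 51.0 and 79.3 (−0.19 ± 0.19). The difference between the strains for miR-16-5p was 0.76 ± 0.37 (edgeR p = 0.048, adjusted p = 0.50). In WBC the largest member value was 0.41 ± 0.32 for miR-15a-5p in C57 (edgeR adjusted p = 0.93), and miR-16-5p was 0.36 ± 0.27 in C3H and 0.11 ± 0.24 in C57. Another scaling turned the sign of 4 of these values near 0, miR-15b-5p and miR-497a-5p in C3H WBC, miR-497a-5p in C57 WBC and miR-195a-5p in C57 RBC.

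Brain, which was shielded, had the fewest calls among the organs: 0 of 433 miRNAs in C3H (0%), with 8 at an unadjusted edgeR p under 0.05 and 0 with DESeq2, and 3 of 433 in C57 (0.693%), with 55 unadjusted and 9 with DESeq2. No member was called. miR-15b-5p in the 5 irradiated C57 brains was 23.0, 19.7, 19.1, 20.1 and 18.0 RPM against 14.6, 27.8 and 47.6 in sham, a narrow set inside the sham range (log2 fold change −0.50 ± 0.24, edgeR p = 0.050, adjusted p = 0.39). The other members were between −0.05 and 0.20 in C3H and between −0.14 and 0.26 in C57.

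The response of the members was not found to differ between the strains. The interaction of strain and irradiation called 0 members in each tissue, beside 1 of 350 miRNAs in lung (0.286%) and 0 of the 312 heart, 433 brain, 291 WBC and 229 RBC miRNAs (0% each). With DESeq2 the calls were 1, 4, 0, 0 and 1 in that order. At an unadjusted edgeR p under 0.05 there were 47, 52, 24, 8 and 22 miRNAs, of which 1 was a member, miR-16-5p in RBC.

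Ratios between members within a library do not depend on the scaling. Of 40 comparisons (4 ratios, 5 tissues and 2 strains), none passed in an exact 2-sided permutation test with Benjamini-Hochberg adjustment, the smallest adjusted p being 0.549. The log2 ratio of miR-16-5p to miR-195a-5p was 7.57 ± 0.53 (SD, n = 7) in irradiated against 6.96 ± 0.40 (SD, n = 8) in sham C3H lung (exact permutation p = 0.0277), with 4 of 7 above all sham. In C57 lung it was 8.06 against 7.56 (exact permutation p = 0.0858), with 5 of 5 above the sham median. The ratio of miR-15b-5p to miR-16-5p in C57 brain was −10.87 against −10.19 (exact permutation p = 0.0261), with 5 of 5 below the sham median. The ratio of miR-195a-5p to miR-497a-5p in C3H RBC was −0.53 against −1.60 (exact permutation p = 0.0412). In sham blood of C3H the first ratio was 15.47 in WBC and 15.41 in RBC, against 6.96 to 7.75 over the organs of both strains.

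The last comparison set C3H against C57 in sham females, 8 against 7 libraries per tissue and 5 against 4 in WBC. Strain goes with the month of collection here and cannot be told apart from it. The number of members called was 3 in RBC beside 64 of 204 miRNAs (31.4%), 2 in heart beside 138 of 293 (47.1%) and 1 in WBC beside 68 of 288 (23.6%). In lung it was 0 beside 53 of 319 (16.6%), with 1 member at an unadjusted edgeR p under 0.05, and in brain 0 beside 56 of 413 (13.6%), with 0 members unadjusted. The counts in heart are below and in RBC above the share of all miRNAs, on 5 members.

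In RBC the organ-rich pair was lower in C3H. miR-497a-5p had 20.8, 24.7 and 30.2 RPM in C3H and 46.4, 48.2, 43.9, 34.7, 79.3, 65.1 and 69.2 in the 7 C57 libraries, without overlap. Its log2 fold change was −1.18 ± 0.15 (0.443-fold, edgeR adjusted p = 1.5e-06), called in 24 of 24 alternatives and within both letters (−1.21 and −1.37). miR-195a-5p had 3.14 to 11.9 RPM in C3H and 12.9 to 27.4 in C57, also apart, with −1.34 ± 0.30 (0.394-fold, edgeR adjusted p = 0.0013), which was −1.87 in letter A and −0.68 in letter B, where it was not called (edgeR adjusted p = 0.060). miR-16-5p was lower too, with 324564, 345926 and 408900 in C3H against 367659, 459126 and 559051 in C57 (−0.50 ± 0.19, edgeR adjusted p = 0.044), which was −0.94 in letter A and 0.01 in letter B, and was not called without C3H library 3, 5 or 8 or C57 library 9, 11 or 12 (−0.51 to −0.33). miR-322-5p went the other way and was higher in C3H, 410 to 718 RPM against 135 to 319, apart in range (1.29 ± 0.19, 2.45-fold, edgeR adjusted p = 9.4e-06), with 1.16 and 1.19 in the letters.

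miR-15a-5p and miR-15b-5p in RBC were 0.11 ± 0.23 and 0.03 ± 0.25 over both letters, and this hid opposite values inside them. miR-15b-5p had 1916.5, 1524, 1685 and 1457 RPM in the 4 C3H libraries of letter A and 1348, 1368, 840 and 908 in the 4 of letter B. The C57 libraries had 716, 902, 704 and 470.5 in letter A and 2732, 2304 and 2280 in letter B. The strain difference was 0.89 in A and −0.995 in B, both called, and for miR-15a-5p it was 0.69 and −0.57, both called. Brain showed the same kind of split for miR-195a-5p: C3H had 104, 235, 353 and 299 RPM in letter A and 133, 151, 183 and 138 in B, while C57 had 164, 119, 129 and 107 in A and 345, 350 and 296.5 in B. Over both letters its difference was −0.10 ± 0.29, and it was 0.92 in A (not called) and −1.16 in B (edgeR adjusted p = 5.9e-05). miR-15b-5p in brain had 18.2, 12.3, 20.9 and 21.4 RPM in C3H letter A and 44.3, 34.5, 39.3 and 42.6 in B, against 47.6, 27.9, 25.6 and 27.5 in C57 letter A and 14.6, 34.7 and 17.6 in B, and its difference was −0.84 in A and 0.81 in B, both called. All 5 members were called in letter B, with miR-15a-5p at 0.74, miR-16-5p at −0.44 and miR-497a-5p at 0.84. In letter B, with 4 C3H and 3 C57 brains, 292 of 426 brain miRNAs were called. In letter A it was 52 of 411 and over both letters 56 of 413. So most brain miRNAs, and not the members alone, were called in letter B. A difference seen in a single letter cannot be told apart from what the letter marks. What the letter stands for was not tested.

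**Figure D5:**
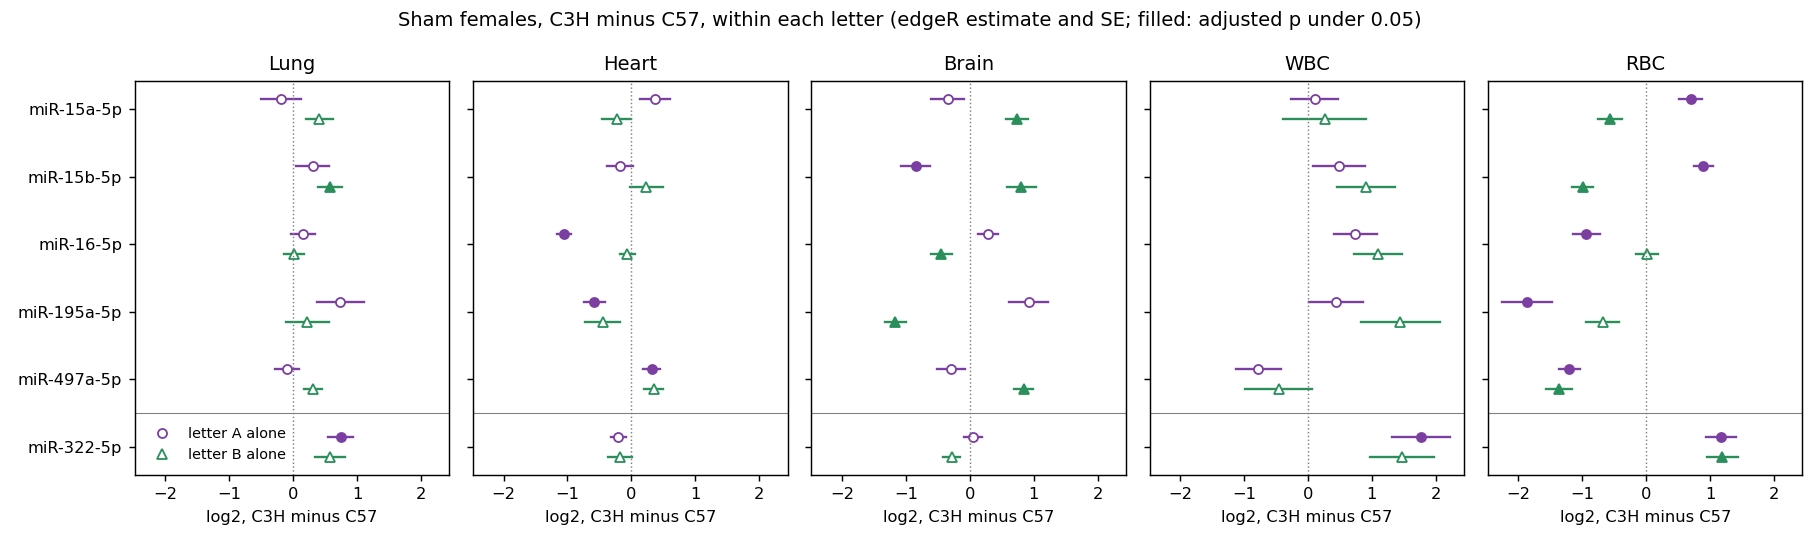
C3H minus C57 log2 fold change in sham females for the 5 members and miR-322-5p, estimated within title letter A and within letter B in each tissue, with SE bars. In RBC miR-497a-5p and miR-322-5p keep their sign and size between letters, whereas miR-15b-5p in RBC and miR-195a-5p in brain change sign.

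In heart miR-497a-5p was higher in C3H, 107 to 178 RPM against 79.3 to 101.5 in C57 and without overlap (0.35 ± 0.10, 1.28-fold, edgeR adjusted p = 0.0057). It was 0.32 in letter A (edgeR adjusted p = 0.049) and 0.35 in letter B, where it was not called (edgeR adjusted p = 0.15). With no filter on low counts it was 0.37 and not called (edgeR adjusted p = 0.055). miR-16-5p was lower, with a mean of 40535 ± 9418 RPM (SD, n = 8) against 47962 ± 5031 (SD, n = 7) and 5 of 8 C3H values below all C57 values (−0.45 ± 0.18, edgeR adjusted p = 0.040). It was called in 10 of 25 alternatives, at −1.06 inside letter A and −0.06 inside letter B, and not without C3H library 1, 2, 3 or 4 or any of C57 libraries 9 to 12, 14 and 15 (−0.45 to −0.31). miR-195a-5p was −0.46 ± 0.19 and was not called (edgeR adjusted p = 0.054), and was called without C3H library 6, 7 or 8 or C57 library 12 or 13 (−0.52 to −0.50). In WBC miR-16-5p was higher in C3H with 4 of 5 libraries above all C57 (0.85 ± 0.24, edgeR adjusted p = 0.014), and by library totals alone the value was 0.16 (adjusted p = 0.31), where the median of all miRNAs was −0.66. miR-322-5p was also higher in C3H WBC (1.57 ± 0.37, edgeR adjusted p = 0.0050), but by library totals alone it was 0.92 and not called (adjusted p = 0.084), and it was 1.77 in letter A and 1.47 in letter B, not called in B. miR-497a-5p in WBC was 15.7 to 25.5 RPM in C3H and 39.8 to 57.9 in C57, apart in range, but −0.69 ± 0.35 on the TMM scale and not called (edgeR adjusted p = 0.14), against −1.36 and called by library totals alone (edgeR adjusted p = 0.0025). Lung held no called member, the largest being miR-195a-5p at 0.48 ± 0.32 and miR-15b-5p at 0.44 ± 0.17 (edgeR adjusted p = 0.33 and 0.084), while miR-322-5p was higher in C3H (0.68 ± 0.18, edgeR adjusted p = 0.0068). In brain every member was within 0.29 of 0. Library totals alone turned the sign of the strain difference of miR-15a-5p in lung and WBC and of miR-15b-5p in RBC.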

How the data were processed

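The deposited tables hold whole-number counts of reads per mature miRNA, which the authors made from QIAseq miRNA libraries by trimming, alignment to mm10 (per the submitters' processing notes) and counting in Illumina's BaseSpace apps. Runs with few miRNA reads had been rejected before deposit. The use of molecular identifiers and the treatment of reads that fit several miRNAs are not given in the sources used here. All table columns matched a labelled library (0 did not).

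Sequences came from RefSeq (GRCm38.p6), matched by miRNA name, and host genes from the supplied gene annotation of that build. Counts were divided by library totals to give RPM. Each tissue was fitted across all miRNAs with edgeR 4.0.16 (R 4.3.3; filterByExpr, TMM, quasi-likelihood test), with 1 group per strain and exposure. Sham females of both strains were fitted separately. p-values were adjusted by Benjamini-Hochberg over all miRNAs of the tissue, and 0.05 was the threshold. A method close to the study's, voom with quantile normalisation of the counts in limma 3.58.1 (the study used an earlier version and quantile-normalised log2 RPM), gives the top-ranked miRNA 1 value in every library and so cannot measure miR-16-5p in blood. It was run as an alternative, as were DESeq2 1.42.0, library totals alone, other filters, covariates, the fold minimum of 2.25 and leaving out libraries. Alternatives chosen after seeing the data were the title letters singly, sex and letter together, leaving out the 2 libraries of a tissue least like the others, leaving out single libraries from the strain comparison, and the correlations, with their splits.

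Named are the 5 members, other miRNAs of the same seed, the other arms of the same hairpins, and the 3 miRNAs most like each member over sham groups (log2(RPM + 1), at least 10 RPM in 1 group). The members and these lists were chosen with earlier results of these data known. On data with known changes built from the lung libraries, edgeR recovered 29 of 32 changed miRNAs (90.6%) in the C3H comparison among 342 tested, with 4 unchanged ones called. Those changes were larger than any member's lung estimate over all libraries, and every miRNA was given the same spread. So this recovery does not show how often changes of the members' size would be found. Every pair of same-group libraries differed by more than counting error (chi-square over degrees of freedom of at least 15.5). Intervals of counts cover counting error only.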

Additional observations from a re-analysis of the deposited data

Results flagged for a closer look

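Of 75 sets of 4 to 10 libraries of 1 group examined for 1 member each, 10 held a library far from the rest, where the gap to its nearest neighbour took most of the range. Chance gives about 1 in 20 such sets.

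Low values of miR-15a-5p made up 5 of them. It was 10.9 RPM in C3H irradiated heart library 3, against 35.5 to 73.8 in the other libraries of the group, and 79.0 in C3H irradiated WBC library 7, against 247 to 399. In brain it was 16.7 in C3H sham library 2 (others 28.5 to 37.4), 12.4 in C3H irradiated library 2 (26.4 to 41.3) and 10.4 in C57 irradiated library 5 (29.1 to 38.1).

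miR-15b-5p was 27.7 RPM in the same C3H irradiated heart library 3 (others 106 to 179), and 2065 in C57 irradiated RBC library 5, the only female of its group (others 1026 to 1203). miR-195a-5p was 515 in C3H irradiated brain library 2 (others 111 to 198), the library in which miR-15a-5p was low, and 3.14 in C3H sham RBC library 3 (others 7.21 to 11.9), which is 8 reads. miR-497a-5p was 85.7 in C57 irradiated brain library 5 (others 168 to 220.05), again beside a low miR-15a-5p.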

How the results depend on the processing

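The number of members called moved in 9 comparisons. After irradiation in C3H heart the 1 member became 0 under voom with quantile normalisation, library totals alone, no filter on low counts, at least 10 counts in every library, the fold minimum, without the 2 libraries least like the others, and in letter B. In letter A it was again 1, but that was miR-16-5p and not miR-497a-5p. In C3H RBC 0 became 1 under DESeq2, at least 10 counts in every library and letter B, in C3H lung 0 became 1 in letter B, and in C57 heart 0 became 1 without the 2 libraries least like the others. Between strains in sham females, the 2 of heart became 1 under library totals alone and without the 2 libraries, and 0 with no filter, the fold minimum and in letter B. The 1 of WBC, miR-16-5p, became 0 under voom, no filter, the fold minimum and in either letter, and by library totals alone the 1 called was miR-497a-5p instead. The 3 of RBC became 5 in letter A and 2 under voom, no filter, at least 10 counts in every library, the fold minimum and the letter as a covariate. In letter B they were again 3, with miR-15a-5p and miR-15b-5p in place of miR-16-5p and miR-195a-5p. The 0 of lung became 1 in letter B, and the 0 of brain 1 in letter A and 5 in letter B. Leaving out single libraries gave 0 to 1 in C3H heart (irradiated 3), 0 to 1 in C57 heart (irradiated 5), 0 to 1 in C3H RBC (irradiated 2, 3 or 4), 1 to 3 in the heart strain comparison and 2 to 3 in that of RBC.

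The strain difference had opposite signs in the letters, called in both, for miR-15b-5p in brain (−0.84 in A) and RBC (−0.995 in B), miR-15a-5p in RBC (−0.57 in B) and miR-15b-3p in RBC (0.80 in A). It also changed sign within a letter for miR-195a-5p in brain (0.92 in A) and miR-16-5p in RBC (0.0086 in B), neither called there. TMM over all libraries moved the blood-to-organ gaps to 4.09 (miR-15a-5p), 4.61 (miR-15b-5p), 4.31 (miR-16-5p), −3.13 (miR-195a-5p) and −1.44 (miR-497a-5p). The cause of these moves was not tested.

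No paired analysis was possible because sham and irradiated libraries of a tissue came from different animals. Limits are the few irradiated C57 mice (5, with 1 female), the single sex of C3H, the low counts of miR-195a-5p in C3H RBC (from 8 reads), and blood totals that miR-16-5p itself fills.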
